A study of Mus musculus with 30 samples.

Results

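Fasting changes were compared between skeletal muscle (SM) and liver (LIV) of the same experiment: for each gene, the change in SM (fasted minus fed) minus the change in LIV (fasted minus fed). All 18781 genes represented by a probe set of a single gene symbol entered, of 18781 in the series, and 2867 of them were called different between the tissues (15.3% of the genes tested). Of these, 82 rose in one tissue and fell in the other. The mice were male C57Bl/6 (C57Bl/6 J in the methods), 10 to 12 weeks old, kept on chow with a daily cycle of light and dark. The fasted groups had no food for 24 h before tissues were taken, and the fed groups (ad libitum) ate chow until then. RNA of whole SM of the thigh and whole LIV was hybridised to Affymetrix mouse gene arrays, with 1 array per mouse and tissue, and 18 arrays were used here: 5 of fed SM, 4 of fasted SM, 4 of fed LIV and 5 of fasted LIV. Epididymal white adipose tissue (WAT) of the same diets was measured too, and its values are given beside some genes and for the classes of genes. Levels are log2 expression values, on which a step of 1 is a doubling, and all changes are given on this scale. A gene was called at an adjusted p under 0.05 with a change of at least 1.3-fold, and tests were made with limma. In whole tissue, fewer cells of a type and less RNA per cell cannot be told apart.

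In a fast, LIV turns from storing to releasing fuel: it stops making fatty acids and cholesterol, oxidises fatty acids under the nuclear receptor Ppara, and makes glucose and ketone bodies for other organs. SM is a large user of fuel and the main protein store of the body. When insulin falls it burns fatty acids instead of glucose and, under FoxO transcription factors and glucocorticoids, breaks down protein to amino acids, which LIV takes up for glucose synthesis.

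A fed LIV array (replicate 4) and a fasted SM array (replicate 5) were left out. The study's results text leaves out the same LIV array but names fasted SM replicate 1 in place of 5. The SM folds that the study prints match those found here without replicate 5, such as 17.72 for Ddit4 and 4.43 for Cdkn1a. The numbering rather than the array left out therefore appears to differ. With the array labelled 1 left out in place of 5, 1393 genes had a higher and 1535 a lower change in SM. The larger count thus changed sides, and 68 of the 82 opposite genes were among the 85 called. The left-out SM array had a mean of 8.12 over 7 lymphocyte markers, against 3.86 to 4.10 on the other SM arrays. Markers set the tissues apart as labelled. The mean of 8 hepatocyte markers lay between 12.5 and 12.6 on the LIV arrays and between 4.14 and 5.40 on the SM arrays. That of 12 muscle fibre markers lay between 12.5 and 12.6 in SM and between 4.60 and 4.86 in LIV. SM arrays differed among themselves in other cell types: 7 slow fibre markers had a mean of 5.39 to 10.2 in fed and 8.34 to 9.86 in fasted SM, and 9 adipocyte markers a mean of 7.90 to 9.81 in fed and 7.95 to 8.79 in fasted SM, with 3 of the 9 called lower. Of 8 markers of fibroblasts and stellate cells, 5 fell in SM, with means of 8.43 to 8.65 in fed and 7.92 to 8.34 in fasted mice. In LIV, 5 of 11 macrophage markers fell, with means of 6.74 to 7.12 in fed and 6.40 to 6.75 in fasted mice.

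More genes were called in SM than in LIV. In SM 1464 genes rose (7.8% of the genes tested) and 1086 fell (5.78%), and in LIV 663 rose (3.53%) and 753 fell (4.01%). The change in SM was higher than that in LIV for 1498 genes (7.98%) and lower for 1369 (7.29%). Most of these genes were called in only one of the tissues. Of the genes called in the difference, 813 rose in SM with a change under 1.3-fold and no call in LIV, and 577 fell in the same sense. In LIV alone, in this sense, 308 genes rose and 364 fell. Without a call in the difference or a limit on the other tissue's fold, 1274 genes rose and 928 fell in SM with no call in LIV. By that count 477 rose and 591 fell in LIV with no call in SM. Opposite calls were few: 43 genes rose in SM and fell in LIV, and 39 fell in SM and rose in LIV. By comparison, 147 genes rose and 119 fell in both tissues, of which 53 in all had different sizes of change in SM and LIV. A further 670 genes differed between the tissues without falling into any of these classes, 651 of them called in neither tissue on its own. Across all genes the changes of SM and LIV were weakly related, with Pearson's r of 0.173 and Spearman's rho of 0.146. This is a description over genes, which are not independent replicates.

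**Figure D1:**
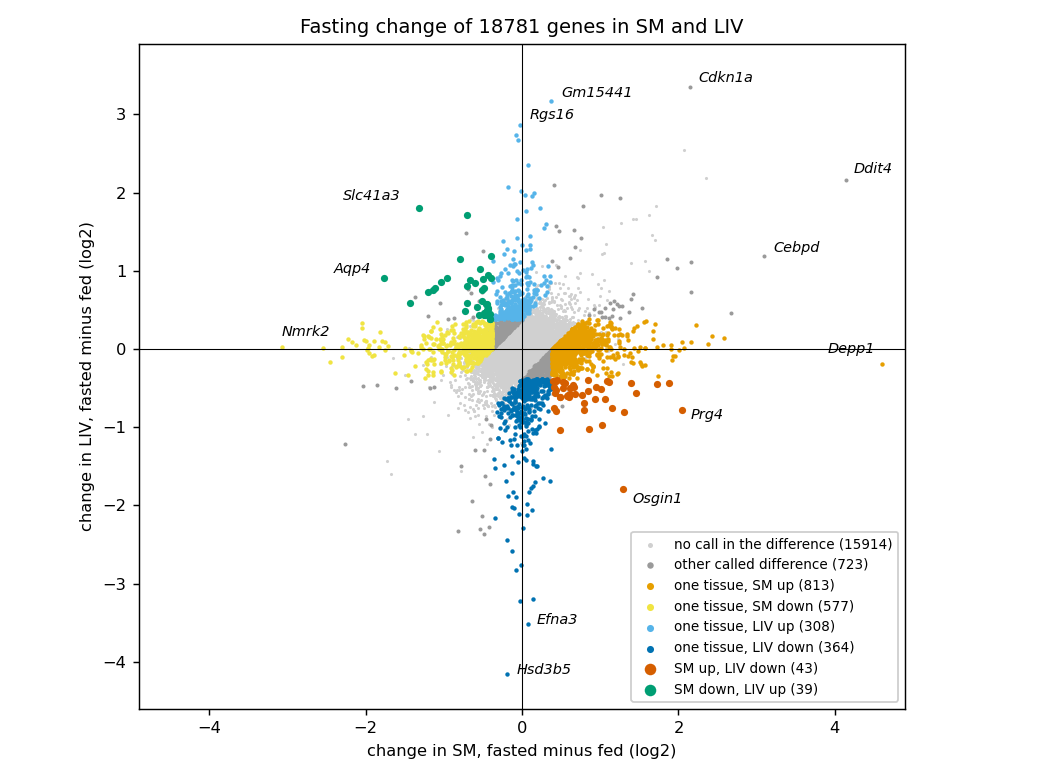
Fasting change in SM (x axis, log2) and in LIV (y axis, log2) of each of the 18781 genes, coloured by class, with the number of genes in each class in the key. The 43 genes that rose in SM and fell in LIV lie at the lower right and the 39 that fell in SM and rose in LIV at the upper left, while most called genes lie along 1 of the axes.

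Among the 43 genes that rose in SM and fell in LIV, Osgin1, a growth inhibitor induced by the factor Nrf2 (Nfe2l2), had the largest difference between the tissues. In SM it stood at 6.71, 6.77, 6.43, 6.79 and 6.60 on the fed arrays and at 8.13, 7.94, 7.89 and 7.88 on the fasted ones. In LIV it stood at 10.15, 10.67, 10.26 and 10.41 in fed and at 8.75, 8.32, 8.71, 8.30 and 8.85 in fasted mice. The fed and fasted arrays did not overlap in either tissue. Osgin1 thus rose 2.46-fold in SM (1.3, standard error 0.13) and fell 3.45-fold in LIV (−1.79, standard error 0.13), a difference of 3.08 (95% confidence interval 2.71 to 3.46, adjusted p = 4.09e-12). It was the only 1 of the 43 genes to change at least 2-fold in both tissues.

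Gclc, the catalytic subunit of the enzyme that opens glutathione synthesis, stood at 8.17, 8.12, 8.01, 8.30 and 8.18 in fed and at 9.17, 9.19, 9.27 and 9.23 in fasted SM. In LIV its values were 11.65, 11.66, 11.63 and 11.45 in fed and 11.12, 10.85, 11.15, 10.72 and 10.96 in fasted mice. No fasted array reached the range of the fed ones in either tissue, and the difference was 1.70 (standard error 0.12, adjusted p = 1.74e-10). Its partner Gclm, the modifier subunit, rose by 1.07 in SM, whereas its change of −0.31 in LIV did not pass the 1.3-fold limit. Hmox1, which breaks down heme, rose by 1.45 in SM and fell by 0.56 in LIV (difference 2.01, standard error 0.18, adjusted p = 5.85e-09). Its SM arrays lay between 5.83 and 6.33 in fed and between 7.19 and 7.84 in fasted mice. Chac1, which degrades glutathione and is a target of the stress factor Atf4, rose 2.22-fold in SM and fell 1.68-fold in LIV (difference 1.90, standard error 0.23, adjusted p = 1.01e-06). Alas2, an enzyme of heme synthesis in red blood cells, rose by 0.61 in SM and fell by 0.57 in LIV. Slc4a1, the other erythroid marker measured, had −0.03 in SM and −0.11 in LIV.

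The list of antioxidant genes and Nrf2 targets includes Osgin1, Hmox1 and Gclc, so its counts describe the pathway and are not a separate check on these genes. Of 33 measured members, 12 had a higher change in SM, 2 a lower one and 19 did not pass, and 5 were called in opposite directions: Osgin1, Hmox1, Gclc and the aldehyde oxidases Aox1 and Aox3. In SM 11 rose and 2 fell, and in LIV 2 rose and 9 fell. The median difference was 0.28, beside −0.02 over all genes. Over all genes 7.98% had a higher and 7.29% a lower change in SM, and the counts of each gene list are read against these shares. Nfe2l2 itself rose by 0.79 in SM and had a value of −0.05 in LIV, and Srxn1, which repairs oxidised peroxiredoxins, rose by 1.70 in SM and had 0.32 in LIV. Txnip, an inhibitor of thioredoxin, went the other way, with 0.30 in SM and a rise of 0.89 in LIV. Nqo1, a standard Nrf2 target, had 0.33 and 0.05 and was not called in the difference.

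A pair of opposite genes belong to acetyl-CoA carboxylase or its regulation, the enzyme that makes the malonyl-CoA used for fatty acid synthesis. Mid1ip1, which favours the polymer form of this enzyme, stood at 7.33, 7.26, 7.14, 7.29 and 7.37 in fed and at 8.31, 7.95, 8.21 and 8.06 in fasted SM. In LIV it went from 8.03, 7.67, 7.93 and 7.91 to 6.94, 6.79, 7.05, 6.33 and 7.17. The arrays did not overlap, so that fasted SM had more Mid1ip1 than fasted LIV whereas fed SM had less than fed LIV. The difference of changes was 1.88 (standard error 0.17, adjusted p = 5.33e-09). Acacb, the carboxylase whose malonyl-CoA restrains entry of fatty acids into mitochondria, rose by 0.48 in SM and fell by 1.04 in LIV (difference 1.52, standard error 0.16, adjusted p = 1.35e-07). Its arrays did not overlap in either tissue. In WAT, Mid1ip1 fell by 0.98 and Acacb rose by 1.46.

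Other genes of this class had varied roles. Slc7a8, a light chain of exchangers of neutral amino acids, rose by 0.80 in SM and fell by 0.78 in LIV (difference 1.58, standard error 0.16). Inmt, a methyltransferase of indole amines, rose by 1.31 in SM, with all 4 fasted arrays between 9.96 and 10.09, and fell by 0.80 in LIV. Sik1, a kinase induced by cAMP, rose by 0.94 and fell by 0.64, and Ifi205, of a family induced by interferon, rose by 1.02 and fell by 0.97. Of the 11 macrophage markers, 5 fell in LIV, where Ifi205 fell, and 2 rose in SM, where it rose. In SM the means of these markers overlapped, at 5.70 to 6.03 in fed and 5.80 to 6.18 in fasted mice. A link of these markers with Ifi205 was not tested. Prg4, the secreted proteoglycan lubricin, had the largest rise in SM among the 43, 2.04 (from 4.76 to 5.84 in fed to 7.23 to 7.77 in fasted mice). Its fall in LIV, 0.77, was called only just (adjusted p = 0.0496). Tmem144 rose by 0.80 and fell by 0.69. Over the 43 genes, 36 had fed and fasted arrays that did not overlap in either tissue, and the median change was 0.68 in SM and −0.56 in LIV. The lack of overlap follows in part from the calls that define the class.

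**Figure D2:**
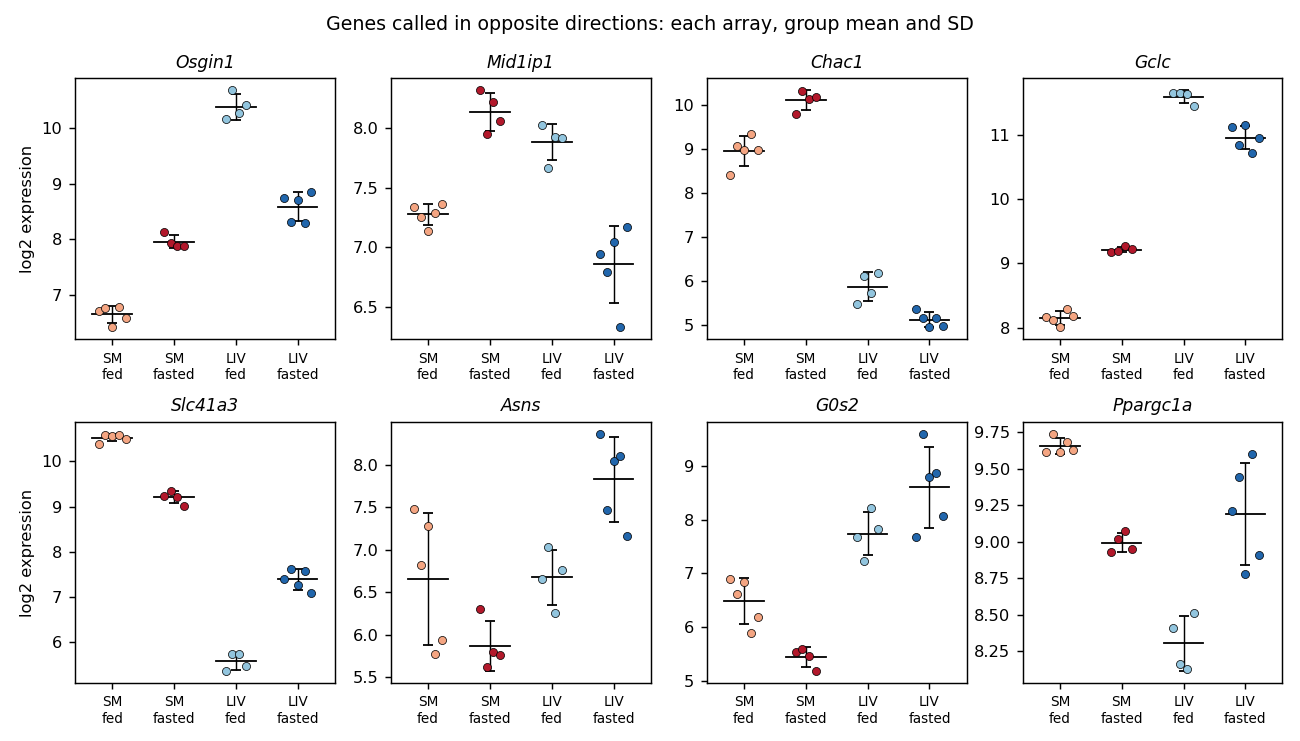
Log2 expression (y axis) of 8 genes called in opposite directions on each array, in the groups SM fed, SM fasted, LIV fed and LIV fasted (x axis), with the group mean as a line and the SD as a bar. The upper row holds genes that rose in SM and fell in LIV, such as Osgin1, and the lower row genes that fell in SM and rose in LIV, such as Slc41a3, whose SM and LIV means moved toward each other.

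Among the 39 genes that fell in SM and rose in LIV, Slc41a3, of a family of magnesium transporters, had the largest difference. It stood at 10.39, 10.59, 10.56, 10.58 and 10.48 in fed and at 9.23, 9.34, 9.22 and 9.02 in fasted SM, against 5.37, 5.75, 5.74 and 5.48 in fed and 7.40, 7.62, 7.27, 7.58 and 7.08 in fasted LIV. No fasted array overlapped the fed ones. The fall in SM was 2.49-fold and the rise in LIV 3.5-fold, a difference of −3.12 (95% confidence interval −3.46 to −2.79, adjusted p = 4.71e-13). Slc41a3 was the 1 gene of the 39 to change at least 2-fold in both tissues. Its promoter window in RefSeq (GRCm38.p6, chr6:90618996-90619295, plus strand) is shown because this gene had the largest opposite difference, with an E-box (CACGTG) in capitals, 213 bases before the start.
Slc41a3: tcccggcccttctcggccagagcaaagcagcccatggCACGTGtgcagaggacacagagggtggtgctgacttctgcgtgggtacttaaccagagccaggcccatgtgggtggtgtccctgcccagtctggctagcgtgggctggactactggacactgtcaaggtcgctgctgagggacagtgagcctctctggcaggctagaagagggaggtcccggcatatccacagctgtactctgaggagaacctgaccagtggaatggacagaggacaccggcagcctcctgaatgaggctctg

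Regulators of glucose output and of mitochondria were in the same class. Ppargc1a, the coactivator that drives mitochondrial genes in SM and glucose synthesis in LIV, stood at 9.61, 9.74, 9.61, 9.68 and 9.63 in fed and at 8.93, 9.02, 9.07 and 8.95 in fasted SM. In LIV it stood at 8.41, 8.16, 8.13 and 8.51 in fed and at 9.21, 9.45, 8.78, 9.60 and 8.91 in fasted mice. The arrays did not overlap in either tissue, and the difference was −1.55 (standard error 0.26, adjusted p = 0.000112). Slc37a4, which carries glucose 6-phosphate into the endoplasmic reticulum for the last step of glucose release, fell by 0.44 in SM and rose by 0.95 in LIV (difference −1.39, standard error 0.09, adjusted p = 1.31e-11). Slc25a47, a mitochondrial carrier found mainly in LIV, fell by 0.39 in SM, where it stood at a mean of 5.83 in fed mice, and rose by 0.91 in LIV, where it stood at 10.82. Among 13 genes of gluconeogenesis, 5 had a lower and 1 a higher change in SM, and Pck1 (−0.05 and 0.45) and G6pc (−0.02 and 0.01) were not called in the difference. In this list the lower change of Gpt and the higher change of Fbp2, the muscle fructose bisphosphatase (0.73 in SM, 0.16 in LIV, adjusted p = 0.0398), each lost their call under some of the alternatives.

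Lipid genes of this class control the release of fatty acids from triglyceride. G0s2, the inhibitor of adipose triglyceride lipase, fell by 1.03 in SM and rose by 0.86 in LIV (difference −1.89, standard error 0.40, adjusted p = 0.00123). It stood at 6.89, 6.62, 6.84, 5.90 and 6.19 in fed and 5.54, 5.61, 5.47 and 5.19 in fasted SM, whereas in LIV the fed arrays (7.68, 7.24, 8.21 and 7.82) overlapped the fasted ones (7.67, 9.58, 8.79, 8.87 and 8.06). Mgll, which cleaves the last fatty acid from glycerol, fell by 0.59 in SM and rose by 0.85 in LIV (difference −1.44, standard error 0.17). Its fed SM arrays ran from 7.93 to 8.90 and overlapped the fasted ones (7.73 to 8.04), in LIV there was no overlap. Both are abundant in fat cells, and the adipocyte markers of SM varied over fed arrays as given above. With the adipocyte mean of each SM array as a covariate, the difference was −1.60 for G0s2 and −1.20 for Mgll, and both stayed called in the difference. The rise in LIV enters that call, so it does not show whether the fall in SM would still be called. With this covariate 88 genes were opposite, 70 of them among the 82.

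Asns, which makes asparagine and is a target of Atf4, fell by 0.79 in SM and rose by 1.15 in LIV (difference −1.94, standard error 0.39, adjusted p = 0.000658). Its fed SM arrays spread widely, at 7.48, 6.82, 7.28, 5.77 and 5.93, and overlapped the fasted ones at 6.30, 5.62, 5.79 and 5.77. They were high on the same 3 arrays as the adipocyte marker mean (9.81, 9.15, 9.55, 7.90 and 8.37 in the same order), and with that mean as a covariate the difference was −1.43. In LIV, fed arrays between 6.25 and 7.03 lay below all fasted ones (7.16 to 8.36). By the calls, Chac1 and Asns, both on the list of the integrated stress response, moved in opposite ways from one another in each tissue. For SM this rests on the fall of Asns there, with overlapping arrays and an adjusted p of 0.0373. Of 39 measured members of that list, 14 had a higher change in SM and 2 a lower one. Ppp1r15a, which turns the response off, rose by 1.80 in SM and had 0.05 in LIV, and Atf4 rose by 0.52 in SM and had −0.33 in LIV.

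Other named genes of this class act in signalling and at membranes. Aqp4, the water channel of fast muscle fibres, fell by 1.76 in SM (fed 8.97 to 9.53, fasted 7.16 to 7.66) and rose by 0.91 in LIV (fed 5.27 to 5.72, fasted 6.11 to 6.74). Map2k6, a kinase that activates p38, fell by 1.14 and rose by 0.75, and Alpl, an alkaline phosphatase, fell by 1.12 and rose by 0.78. Rab30, a small GTPase of the Golgi, had its larger change in LIV, a rise of 1.71 beside a fall of 0.70 in SM. Kcnn2, a potassium channel opened by calcium, fell by 1.20 and rose by 0.73. Tmc7 fell by 0.96 and rose by 0.91, and 1810010H24Rik fell by 0.71 and rose by 0.81. The adjusted p of the difference was at most 0.00375 over the 39 genes. In 28 of them the arrays overlapped in neither tissue, and the median change was −0.51 in SM and 0.61 in LIV. The low p and the lack of overlap follow in part from the calls that define the class.

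Primary transcripts or hairpins of the microRNAs Mir677 and Mir365-2 were also in this class. Mir677 fell by 0.46 in SM and rose by 0.57 in LIV (difference −1.03, standard error 0.19), with no overlap of arrays in either tissue. Mir365-2, with the larger difference, stood at 6.62, 6.73, 6.65, 7.16 and 7.18 in fed and at 5.49, 5.34, 5.60 and 5.34 in fasted SM, with no overlap. In LIV the fed arrays (5.72, 5.69, 6.28 and 5.41) overlapped the fasted ones (5.94, 6.37, 6.59, 6.57 and 6.33). The fall in SM was 1.43 and the rise in LIV 0.59 (adjusted p = 0.0465), with a difference of −2.01 (standard error 0.28). Its mature arms in RefSeq are shown with the seed, bases 2 to 8, in capitals, since the probes read the gene and not a mature arm. The arms have different seeds.
mmu-miR-365-2-5p: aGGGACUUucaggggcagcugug
mmu-miR-365-3p: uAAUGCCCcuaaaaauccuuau

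Hlf, an output factor of the circadian clock, fell by 0.70 in SM (fed 7.11 to 7.57, fasted 6.52 to 6.81) and rose by 0.59 in LIV (fed 8.01 to 8.49, fasted 8.72 to 8.98), a difference of −1.3 (standard error 0.19, adjusted p = 1.21e-05). The clock list was among those with the most members called: of 18 measured genes, 5 had a higher and 6 a lower change in SM. Ciart, a repressor of the clock, rose by 2.10 in LIV (fed 4.32 to 5.04, fasted 6.50 to 7.05), whereas its change in SM, 0.40, was not called (adjusted p = 0.069). Bhlhe41, a repressor too, fell by 1.21 in SM and had 0.42 in LIV. Its relative Bhlhe40 fell in both, by 1.61 in SM and 0.50 in LIV. Npas2, a partner of Bmal1, fell by 1.28 in LIV, had 0.05 in SM and rose by 0.88 in WAT. Cry2 rose by 1.24 in SM and had 0.11 in LIV. Per1 rose in both tissues, by 1.41 and 1.66, and Per2 (0.54 and 0.71) and Clock (−0.16 and −0.01) were not called in the difference either. Tissues of a diet were all taken after the same time, so a shift of phase and a change of level cannot be told apart.

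The promoter windows of Hlf (chr11:90390868-90391167, minus strand) and Ciart (chr3:95882179-95882478, minus strand), also from RefSeq on GRCm38.p6, are shown. Motif positions were listed only for the opposite genes and the genes chosen by the naming rule, not for every clock gene. Among the clock genes of that set, these windows hold a searched motif more than once or near the start. In Hlf the capitals mark a cAMP response element (TGACGTCA) 9 bases before the start, and in Ciart 3 E-boxes (CACGTG) beginning 116, 58 and 44 bases before it.
Hlf: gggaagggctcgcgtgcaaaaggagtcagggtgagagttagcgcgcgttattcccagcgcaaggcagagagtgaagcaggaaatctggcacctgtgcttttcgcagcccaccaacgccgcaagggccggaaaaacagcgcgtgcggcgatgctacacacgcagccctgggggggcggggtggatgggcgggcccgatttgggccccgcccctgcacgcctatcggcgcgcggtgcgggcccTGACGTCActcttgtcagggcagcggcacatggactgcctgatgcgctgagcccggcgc
Ciart: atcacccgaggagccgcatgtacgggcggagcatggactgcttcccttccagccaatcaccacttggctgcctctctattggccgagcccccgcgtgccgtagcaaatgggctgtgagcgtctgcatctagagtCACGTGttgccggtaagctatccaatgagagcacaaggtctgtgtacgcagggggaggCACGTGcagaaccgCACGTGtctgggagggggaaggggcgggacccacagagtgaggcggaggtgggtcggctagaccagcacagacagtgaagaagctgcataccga

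Of the genes called in the difference, 813 rose in SM with a change under 1.3-fold and no call in LIV. Several of the leading ones were expressed well above background in LIV too. Depp1, a target of FoxO that acts on autophagy, had the largest difference of all called genes with a higher change in SM. It stood at 6.43, 6.66, 6.36, 6.97 and 6.21 in fed and at 10.88, 11.31, 11.13 and 11.21 in fasted SM. In LIV the fed arrays were at 9.52, 9.66, 9.07 and 9.53 and the fasted ones at 9.58, 9.08, 9.20, 9.15 and 9.25. Depp1 thus rose 24.4-fold in SM, from below the level of LIV to above it, while the LIV groups overlapped and their difference had a 95% confidence interval of −0.55 to 0.17. The difference of changes was 4.80 (standard error 0.25, adjusted p = 3.97e-13).

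Other leading genes of SM had a part in growth arrest, in the restraint of mTORC1 or in amino acid transport. Sesn1, a sestrin that holds mTORC1 back when leucine is low, rose from between 8.39 and 8.64 to between 10.18 and 10.70 in SM and had −0.14 in LIV (95% confidence interval −0.33 to 0.05). Arrdc3, an arrestin of cell surface receptors, rose by 2.16 in SM and had 0.09 in LIV, at 9.01 to 9.52 in fed and 9.13 to 9.56 in fasted mice. Slc43a1, a transporter of branched-chain amino acids, rose 5.36-fold in SM and had 0.17 in LIV. Gadd45a, which is induced in wasting muscle and by p53, rose by 1.74 in SM, whereas its change of −0.34 in LIV was not called (adjusted p = 0.0584). Doc2b, a calcium sensor of vesicle fusion, rose by 2.58 in SM and stood close to the dim level in LIV (4.03 in fed mice, where the dim level was 3.99). Here the dim level is the 95th percentile of 1155 olfactory and vomeronasal receptor genes, which neither tissue is known to need. Trim63, the muscle ubiquitin ligase MuRF1, stood between 10.39 and 10.91 in fed and between 12.48 and 12.72 in fasted SM. In LIV it stayed below the dim level, as did 42 of the 813 genes in fed LIV. Odf3l2, Eda2r and Fibin, which rose by 2.38, 2.05 and 1.90 in SM, had fed LIV means below it too, though Eda2r reached 4.32 on 1 fasted LIV array.

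The promoter window of Trim63 (GRCm38.p6, chr4:134314870-134315169, plus strand) is shown for 1 of the atrophy ligases that were called in SM alone, with the core of a forkhead site (GTAAACA, here on the other strand as TGTTTAC) in capitals, 194 bases before the start.
Trim63: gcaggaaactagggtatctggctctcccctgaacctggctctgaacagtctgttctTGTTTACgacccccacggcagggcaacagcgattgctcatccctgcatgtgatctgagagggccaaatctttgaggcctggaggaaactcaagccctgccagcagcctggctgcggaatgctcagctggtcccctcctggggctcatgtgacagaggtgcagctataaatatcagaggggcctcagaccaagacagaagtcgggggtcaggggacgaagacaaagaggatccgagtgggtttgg

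For 585 of the 813 genes, the 95% confidence interval of the LIV change lay within 1.3-fold in both directions. For the rest, a change of that size in LIV is not shut out by these arrays. In the list of atrophy genes and FoxO targets, 15 of 35 measured genes had a higher change in SM and 4 a lower one, with 21 up in SM and 5 up in LIV. Fbxo32, the ligase atrogin-1, rose by 1.23 in SM and had −0.11 in LIV, and Eif4ebp1, which blocks translation, rose by 1.26 and had 0.02. Foxo1 (1.28 in SM, 0.55 in LIV) and Foxo3 (1.19 and 0.27) had a higher change in SM. Fbxo31 rose in both, by 0.67 and 1.3. Outside this list, Glul, which makes glutamine, rose by 1.17 in SM, and in LIV its arrays lay between 11.40 and 11.61 in both diets.

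Among the 577 genes that fell in SM alone, Nmrk2, a nicotinamide riboside kinase of muscle, fell 8.41-fold, from 7.85, 9.17, 8.07, 9.61 and 9.54 to 7.04, 5.41, 5.80 and 4.85, and was below the dim level in LIV. Ky, a protease-like protein of the Z-disc, fell by 2.54 in SM with little spread (fed 9.37 to 9.54, fasted 6.83 to 6.98). Tfrc, the transferrin receptor, stood at 9.51, 9.27, 9.51, 9.59 and 9.53 in fed and at 7.65, 7.40, 7.34 and 7.47 in fasted SM. In LIV it stood at 6.52, 6.54, 7.32 and 6.64 in fed and at 6.80, 7.08, 6.94, 6.72 and 6.78 in fasted mice. Fasted SM thus remained above LIV, with a fall of 2.02 in SM, 0.11 in LIV (95% confidence interval −0.16 to 0.38) and a difference of −2.13 (standard error 0.19). Myod1, a master factor of muscle formation, fell by 1.97, Tet1, which oxidises methylated DNA, by 1.96 and Cited4, a coactivator, by 1.71. The named genes of unclear role, 6430571L13Rik and Fam78a, fell by 2.46 and 2.30, and Sec14l5, of a family of lipid transfer proteins, by 2.23. In all, 109 of the 577 genes were below the dim level in fed LIV. Plin1, the coat protein of fat cell droplets, fell by 1.25 in SM and had 0.13 in LIV (adjusted p = 0.0394), and the fall moved with the adipocyte markers. With their mean as a covariate the difference was −0.62.

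**Figure D3:**
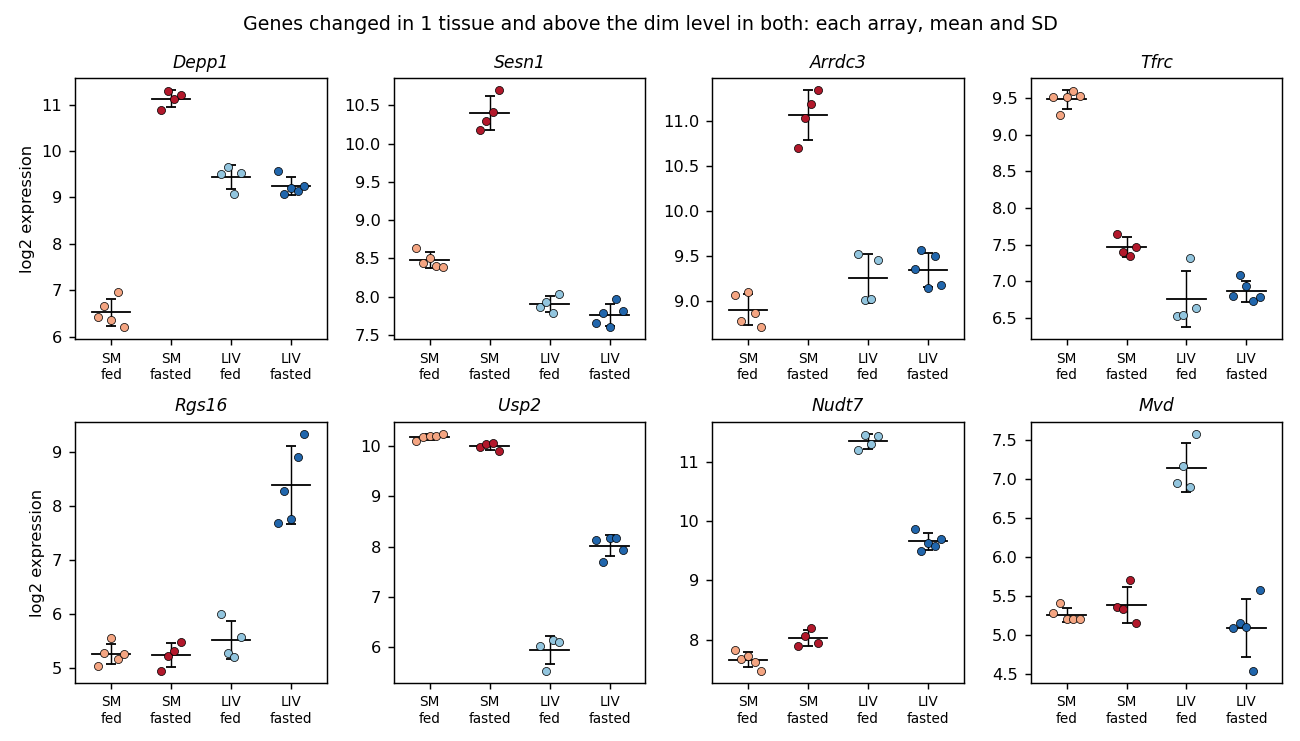
Log2 expression (y axis) of 8 genes called in 1 tissue and above the dim level in both, on each array of the groups SM fed, SM fasted, LIV fed and LIV fasted (x axis), with the group mean as a line and the SD as a bar. Depp1, Sesn1, Arrdc3 and Tfrc changed in SM, and Rgs16, Usp2, Nudt7 and Mvd changed in LIV.

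In LIV alone, 308 genes rose. Rgs16, which shortens G protein signals, stood at 5.99, 5.28, 5.20 and 5.57 in fed and at 7.67, 8.26, 7.75, 8.89 and 9.32 in fasted LIV. In SM it lay between 5.04 and 5.55 in fed and between 4.94 and 5.47 in fasted mice. The SM groups overlapped and the LIV groups did not, with a rise of 7.3-fold in LIV and a difference of −2.89 (standard error 0.32, adjusted p = 1.82e-07). Usp2, a deubiquitinase, rose by 2.07 in LIV, and stood between 10.09 and 10.23 in fed and between 9.89 and 10.05 in fasted SM, a change of −0.18 that was not called. Gadd45b rose by 1.95 in LIV and had 0.13 in SM, the reverse of Gadd45a. Cidec, a lipid droplet protein, rose 5.1-fold in LIV, and its fed SM arrays spread from 7.41 to 9.70, as the adipocyte markers did. Fgf21, a fasting hormone of LIV, rose by 1.07 there and had −0.15 in SM. Cyp17a1, a steroid hydroxylase, rose by 2.74 and Mfsd2a, a transporter of lysophospholipids, by 2.67 in LIV, and both were below the dim level in SM. Gm15441 rose by 3.17 in LIV and had 0.37 in SM. For 195 of the 308 genes the confidence interval of the SM change lay within 1.3-fold.

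The 364 genes that fell in LIV alone included the largest fall of the comparison. Hsd3b5, a steroid dehydrogenase of male LIV, stood at 10.45, 10.66, 10.46 and 10.57 in fed and at 7.65, 6.22, 6.31, 6.08 and 5.66 in fasted LIV, a 17.8-fold fall, and below the dim level in SM. Close relatives of this gene and of the Cyp2c family share sequence, so that single members are uncertain. Efna3, an ephrin, fell 11.4-fold in LIV, from between 8.31 and 8.69 to between 4.56 and 5.12, and lay between 3.98 and 4.48 on all SM arrays. Its probe sets disagreed in size: the difference was 3.59 with the brightest and 1.87 with their average. Serpina7, the carrier of thyroxine, fell by 3.19, and Cyp2c55 by 3.22. Nudt7, a peroxisomal enzyme that cleaves coenzyme A, fell by 1.69 in LIV (fed 11.20 to 11.45, fasted 9.51 to 9.88) and had 0.36 in SM, under the 1.3-fold limit though its adjusted p was 0.00426. Aacs, which feeds ketone bodies into lipid synthesis, fell by 2.44 and Clec2h, a lectin, by 2.83. Of 71 measured enzymes of xenobiotic and steroid metabolism, 21 had a higher change in SM and 6 a lower one, with 21 down in LIV and 3 down in SM. A total of 39 of the 71 were below the dim level in fed SM, where a fall could not have been seen.

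**Figure D4:**
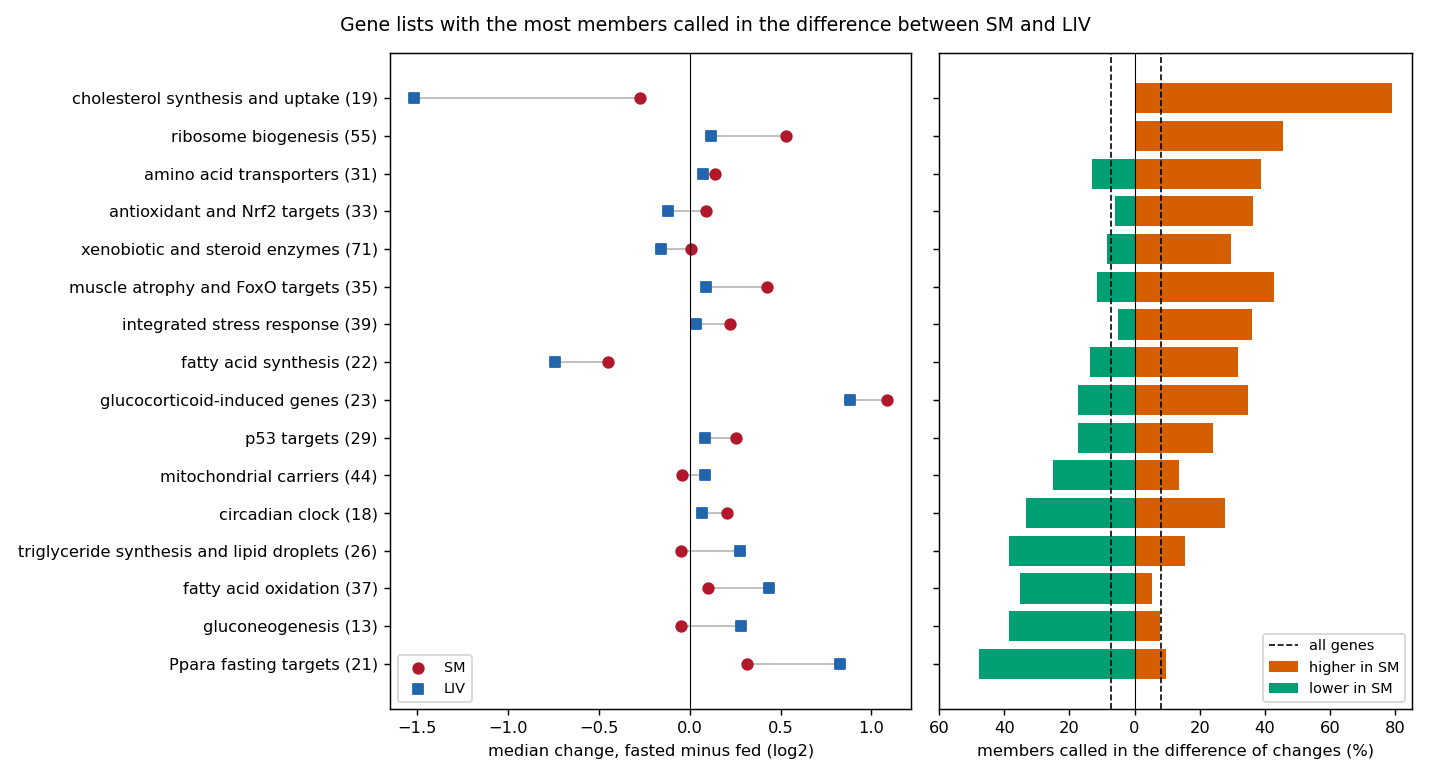
Left, median change (log2) in SM and LIV of the 16 gene lists with the highest share of members called in the difference, with the number of measured genes in brackets. Right, share of members (%) with a higher (orange) or lower (green) change in SM, with dashed lines at the shares over all genes, 7.98% and 7.29%.

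Cholesterol synthesis had the highest share of members called among the 16 lists described. Of 19 measured genes of synthesis and uptake, 15 had a higher change in SM than in LIV and none a lower one. The median change was −0.27 in SM and −1.52 in LIV, with 5 members down in SM and 16 down in LIV. Mvd, which forms isopentenyl diphosphate, stood at 6.95, 7.17, 6.89 and 7.58 in fed and at 5.09, 5.14, 5.10, 4.53 and 5.58 in fasted LIV. In SM it lay between 5.20 and 5.40 in fed and between 5.15 and 5.71 in fasted mice. Fasted LIV thus reached the level of SM, and the difference was 2.19 (standard error 0.23, adjusted p = 8.1e-08). Lss, the cyclase that forms lanosterol, fell by 1.70 in LIV and had 0.16 in SM, and Nsdhl and Cyp51, which work on lanosterol and its products, fell by 2.16 and 1.89 in LIV and had −0.35 and −0.18 in SM. Idi1 and Sqle fell in both tissues, by 0.52 and 0.82 in SM and by 2.13 and 2.32 in LIV. Srebf2, the factor of the pathway, had −0.40 in SM and −0.34 in LIV and was not called in the difference. Outside this list, Insig1, which holds the Srebf factors back, fell by 1.5 in LIV and had 0.19 in SM, whereas Insig2 was one of the 39 opposite genes and fell by 0.44 in SM and rose by 0.57 in LIV.

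Of 22 genes of fatty acid synthesis, 9 fell and 2 rose in SM and 13 fell and 1 rose in LIV, with medians of −0.45 in SM and −0.74 in LIV. In the difference 7 had a higher change in SM and 3 a lower one, and 3 were called in opposite directions, Mid1ip1 and Acacb among them. Fasn, the fatty acid synthase, had −1.73 in SM and −1.43 in LIV and was not called in the difference. Thrsp, a relative of Mid1ip1 that acts with it, fell by 2.30 in LIV and had −0.54 in SM, and Srebf1 fell by 1.95 in LIV and 0.64 in SM.

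Ribosome biogenesis showed the reverse, a rise in SM with little in LIV. Of 55 measured genes, 25 had a higher change in SM and none a lower one. A total of 39 rose in SM and 6 in LIV, with medians of 0.53 and 0.12. Utp11, of the complex that processes small subunit rRNA, stood at 7.54, 7.33, 7.28, 7.23 and 7.04 in fed and at 8.54, 8.36, 8.45 and 8.53 in fasted SM, and between 6.66 and 7.0 on all LIV arrays. The difference was 1.31 (standard error 0.13, adjusted p = 2.44e-08). Gnl3, a nucleolar GTPase, rose by 1.13 in SM and had 0.03 in LIV, and Ddx56, a nucleolar helicase, rose by 0.97 and had 0.05. Myc, which drives such genes, rose by 1.23 in SM and had −0.31 in LIV.

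**Figure D5:**
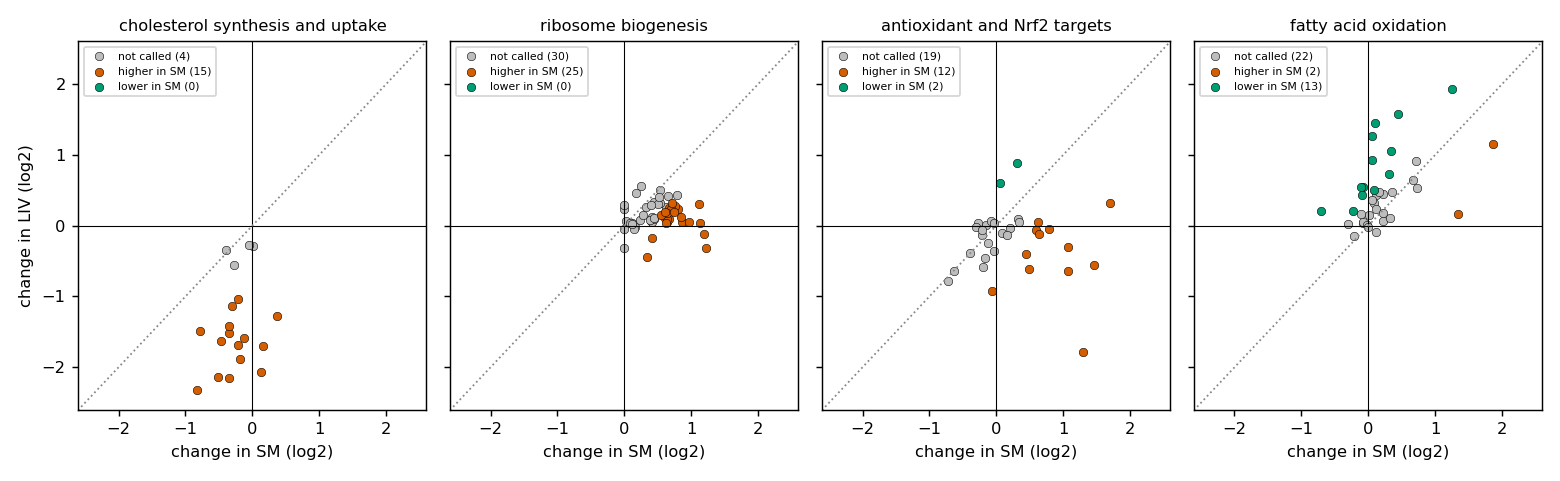
Change in SM (x axis, log2) and in LIV (y axis, log2) of each measured member of 4 gene lists, with members called higher in SM in orange, lower in SM in green and not called in grey. The dotted line marks equal changes. Members of cholesterol synthesis lie low on the LIV axis, those of ribosome biogenesis to the right on the SM axis, and those of fatty acid oxidation mostly above the line.

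Fatty acid oxidation and the Ppara targets had lower changes in SM. Of 37 oxidation genes 13 had a lower and 2 a higher change in SM, with 19 up in LIV and 7 up in SM and medians of 0.44 and 0.10. Acot3, a peroxisomal thioesterase below the dim level in SM, rose by 1.45 in LIV, and Slc22a5, the carnitine transporter, rose by 1.26 and had 0.05. Slc27a1, which takes up fatty acids, rose in both tissues, by 1.58 in LIV and 0.44 in SM. Ucp3 (1.34 in SM, below the dim level in LIV) and Acot2 (1.86 and 1.15) had higher changes in SM. Cpt1a, the gate for fatty acids into mitochondria, had 0.67 and 0.65. Of 21 Ppara fasting targets, 10 had a lower and 2 a higher change in SM, and 16 rose in LIV and 9 in SM. Cyp4a31 rose by 1.80 in LIV and was below the dim level in SM. Pdk4, which shuts off glucose oxidation, had a higher change in SM, with 0.90 there and −0.28 in LIV. Of 26 genes of triglyceride synthesis and lipid droplets, 10 had a lower and 4 a higher change in SM. Plin4 (0.78 and 1.82) and Lpin1 (0.67 and 1.52) rose less in SM, and Lpl, the lipase of capillaries, fell by 0.85 in LIV and had −0.11 in SM.

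Transporters split between the tissues. Of 31 amino acid transporters, 12 had a higher and 4 a lower change in SM, and 10 rose and 4 fell in SM, against 2 and 4 in LIV. Slc7a2, a transporter of arginine and lysine, rose by 1.59 in SM and had 0.36 in LIV. Slc1a4, of small neutral amino acids, fell by 0.88 in LIV and had 0.05 in SM. Slc16a10, which exports aromatic amino acids, was opposite, with a fall of 0.47 in SM and a rise of 0.44 in LIV. Of 44 mitochondrial carriers, 11 had a lower and 6 a higher change in SM. Slc25a51, which imports NAD, rose by 0.79 in LIV and had −0.25 in SM, whereas Slc25a30 rose by 0.59 in SM and had −0.37 in LIV.

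Some genes moved the same way in both tissues but by different amounts. Ddit4, which restrains mTORC1, rose 17.7-fold in SM (5.43 to 6.73 in fed, 9.94 to 10.62 in fasted mice) and 4.46-fold in LIV (5.13 to 5.32 and 6.84 to 7.81). The difference was 1.99 (standard error 0.29, adjusted p = 1.43e-05). Cebpd rose 8.54-fold in SM and 2.29-fold in LIV, and Cdkn1a, the cell cycle inhibitor p21, rose more in LIV, 10.2-fold against 4.43-fold (difference −1.20, standard error 0.25, adjusted p = 0.000859). Rarb, a retinoic acid receptor, fell by 1.86 in SM and 0.46 in LIV. Of 23 genes induced by glucocorticoids, 20 rose in SM and 14 in LIV, and 8 had a higher and 4 a lower change in SM, while Fkbp5 (2.07 and 2.55) and Mt2 (1.63 and 1.72) were not called in the difference. Among 29 targets of p53, 7 had a higher and 5 a lower change in SM, beside 7.98% and 7.29% of all genes. Btg2, which curbs growth, and Eda2r, a death receptor, rose by 1.92 and 2.05 in SM and had −0.08 and 0.08 in LIV.

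The gene lists with the lowest share called in the difference were the respiratory chain, with 1 of 71 measured genes, and fast fibre genes, with 1 of 18. Of the 18 fast fibre genes, 9 were below the dim level in fed LIV, where a fall could not have been seen. Among interferon-stimulated genes 3 of 38 were called, with medians of −0.28 in SM and −0.34 in LIV. These shares lie below the 15.3% of all genes.

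WAT values can be set beside these classes. Its arrays entered neither change but shared the estimate of spread behind the calls, so the reading is not independent. Over all genes 7.99% rose and 7.75% fell in WAT. Of the 43 genes that rose in SM and fell in LIV, 18 rose in WAT and 3, Osgin1, Mid1ip1 and Tubb6, fell. Of the 39 that fell in SM and rose in LIV, 10 fell in WAT and 7 rose. Of the 813 genes that rose in SM alone, 29.6% rose and 3.57% fell in WAT, and of the 577 that fell in SM alone, 26.9% fell and 5.89% rose. Of the genes changed in LIV alone, 19.2% of those that rose there rose in WAT, and 13.5% of those that fell there fell in WAT. The tissues came from the same mice by the methods, so these shares are a description.

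Genes that fell in 1 tissue were mostly those with the higher fed level in it. The 364 genes that fell in LIV alone were higher in LIV than in SM in 317 cases (8281 of all 18781 genes), and the distance between the tissues was smaller in fasted mice for 82.1% of them. The 577 that fell in SM alone were higher in SM in 458 cases (10500 of all genes), and the distance was smaller for 74%. For genes that rose in SM alone the distance was smaller for 37.8%, and for those that rose in LIV alone for 26.6%. Over all genes it was smaller for 52.5%. A gene near the dim level in a tissue can hardly be called lower there, so these shares follow in part from the calls. In fed mice 95 of the 364 genes were below the dim level in SM and 109 of the 577 in LIV. The fed arrays also enter both the distance and the change, so no test was made.

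Promoter windows, 250 bases before to 50 after a start, were given for 14723 of the genes, among them 66 of the 82 opposite genes. The forkhead core (GTAAACA), the E-box (CACGTG) and the cAMP response element (TGACGTCA) were searched on both strands, and matches of different motifs may share bases. The E-box was in a window of 9.57% of all genes, of 13.6% of those that rose in SM alone and of 9.2% of those that fell there alone. For genes changed in LIV alone it was in 9.29% of those that rose and 12.1% of those that fell. Among genes with a window it was in 4 of the 30 that fell in SM and rose in LIV. It was in only 2 of the 36 that rose in SM and fell in LIV. The forkhead core was in 3.5% of all genes, in 4.42% of those that rose in SM alone and in 1.42% of those that fell in SM alone. It was also in 4.87% of those that rose and 4.26% of those that fell in LIV alone, so a share above that of all genes was not particular to the SM rise. The cAMP response element was in 2.78% of all genes and in 3 of the 30, namely Hlf, Tmc7 and Trp53inp2. It was in 4.28% of those that rose and 1.89% of those that fell in SM alone. In LIV alone it was in 1.77% of those that rose and 1.77% of those that fell. A match describes letters only.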

How the data were processed

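The arrays of SM and LIV are those of the opening, and WAT arrays entered the fit. The table the authors deposited holds log2 expression values, made in Partek with RMA, that is background correction, quantile normalization and median polish, which removes changes in total mRNA. The table has 28815 probe sets, and the annotation gave 1 gene symbol for 21153 of them, more than 1 for 1867 and no entry for 5795. A gene takes its brightest probe set of 1 symbol. On RNA extraction the labels name Trizol and the methods spin columns.

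One mean per tissue and diet was fitted over 28 arrays with limma 3.58.1 in R 4.3.3 (moderated variances, prior degrees of freedom 4.24), which treats arrays of SM and LIV as independent. Contrasts were fasted minus fed in each tissue and their difference, adjusted over all probe sets by Benjamini-Hochberg. The procedure was tested on simulated data. The labels call the arrays biological replicates, and 4 or 5 per group limit the precision. A gene was named if it was among the 10 opposite genes in each direction with the largest smaller change, the leading genes of each class changed in 1 tissue or in the same direction, or up to 4 called members of the 16 gene lists with the highest share of members called; further genes were chosen after their values were seen. The members, the 45 lists and the rules were chosen with earlier results of these data known. Figures and sequence searches used Python 3.11.15 with matplotlib 3.10.9.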

Additional observations from a re-analysis of the deposited data

Results flagged for a closer look

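The comparison itself was a test of whether the fasting change differed between SM and LIV. By it 1498 genes had a higher and 1369 a lower change in SM, and 43 and 39 genes were called in opposite directions, as given above.

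Single arrays stood apart from the others of their group by Dixon's criterion in 24 of 464 groups of values (5.17%), over the named genes and the marker means. Chance gives about 1 in 20. Among genes that fell in LIV these were Efna3 at 8.69 and Aacs at 8.3 on fed LIV 5, Cyp2c55 at 4.54 on fasted LIV 3 and at 3.69 on fed SM 3, and Nsdhl at 7.24 on fed SM 5. Among opposite genes they were Tmc7 at 5.99 on fed LIV 2, Slc37a4 at 10.4 and Sik1 at 8.84 on fed LIV 1, Gclc at 11.4 on fed LIV 5 and Acacb at 8.85 on fed LIV 3. Tfrc stood at 7.32 on fed LIV 3 and at 9.27 on fed SM 2, Sec14l5 at 3.92 on fasted LIV 2 and Fam78a at 4.15 on fed LIV 1. Cyp2c39 stood at 6.4 on fed LIV 3, Fgf21 at 3.84 on fed SM 1, Eda2r at 4.32 on fasted LIV 2 and Fibin at 7.5 on fasted SM 1. Fbp2 stood at 9 on fasted SM 2, Rarb at 6.6 on fed LIV 1, Bhlhe41 at 4.95 on fasted LIV 4 and Bhlhe40 at 7.36 on fasted LIV 5. The mean of the fibroblast and stellate cell markers stood at 8.34 on fasted SM 1 and at 8.65 on fed SM 1, above the others in both groups.

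The fasted SM array that was left out had a lymphocyte marker mean of 8.12, far above the other SM arrays.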

How the results depend on the processing

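For the 101 genes chosen by the naming rule, the difference held its direction in all alternatives run, and among them the call was lost only for Fbp2 (in 20 of 37 alternatives, adjusted p up to 0.196), Plin1 (14, up to 0.112) and Gpt (3, up to 0.0681). The size moved by over 1.5 times for Efna3 (1.87 with probe sets averaged, 3.59 with the brightest) and Plin1 (−0.62 with the adipocyte mean as a covariate). Other genes named were not run singly. Counts moved by over 1.5 times only with the minimum fold. At a minimum of 1.5-fold, 794 genes had a higher and 657 a lower change in SM, 13 rose in SM and fell in LIV, 14 did the reverse, 333 rose and 253 fell in SM alone, and 119 rose and 168 fell in LIV alone, since fewer genes pass. With no minimum fold 157 genes rose in SM and fell in LIV, 162 did the reverse, 913 fell in SM alone and 507 rose in LIV alone. Without single arrays the counts ran from 1354 to 1565 (higher in SM), 1237 to 1452 (lower), 36 to 47 and 33 to 47 (opposite), 713 to 866 and 527 to 622 (SM alone), and 255 to 317 and 331 to 388 (LIV alone). With all 30 arrays 83 genes were opposite, 57 of them among the 82, and 44.9% of the called differences were higher in SM, against 52.2%. Leaving out fasted SM 1 in place of 5 gave 47.6%, and arrays centred on their medians 60.9%. Whether a replicate number marks the same mouse in SM and LIV is not given by the labels. Deviations of SM and LIV arrays of a number correlated from −0.0573 to 0.12 over 8 pairs. In 3 of them, all fasted, the SM array correlated best with the LIV array of its own number. Correlations this weak cannot decide whether the numbers pair the samples. With the number within diet as a replicate block, 1413 genes were higher and 1197 lower in SM, and with the number within tissue as a block 1308 and 1342. Of 1665 list medians, 107 moved by more than the replicate SD. Signal near the dim level limits what can be seen of a gene in the tissue that lacks it.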
